A study of Xenopus laevis with 51 samples.

Results

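The mitosis and spindle checkpoint genes are the parts list of cell division: the kinase that starts mitosis and its cyclins, the kinases and scaffolds that build the spindle, the checkpoint that holds anaphase back, the kinetochore, the machinery of mitotic exit, and the enzymes that compact and cut apart chromosomes. The members were the 40 symbols of a written list, and every entry of the expression files whose symbol is on that list was kept as a member of its own. 39 of the 40 symbols were found, in 72 of the 24381 entries of each library, and no entry carried the symbol CENPF. The Xenopus laevis genome descends from an ancient duplication, so many genes have a pair of homeologs. Here 22 symbols had 2 entries, 13 had 1, CDCA8 had 3, and CCNB1, BIRC5 and PRC1 had 4 each. The row identifiers do not say which entries are homeologs, and both CCNB2 entries lie on the minus strand of the same scaffold. Entries of a symbol are numbered in file order, and the number carries no meaning beyond that.

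A cell enters mitosis when CDK1, bound to cyclin A or cyclin B, is freed of its inhibitory phosphates by a Cdc25 phosphatase. Polo and Aurora kinases then assemble the spindle, while BUB and MAD proteins at unattached kinetochores block the ubiquitin ligase APC/C and so hold separase in check. Most of these transcripts accumulate from S phase to mitosis and are scarce in cells that have left the cycle, so in a tissue that is still growing they are read as a measure of dividing progenitors. In bulk tissue, however, fewer cells of a type and less RNA per cell cannot be told apart.

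The values come from pooled hindbrains and whole eyes of albino Xenopus laevis from 1 supplier, sex not determined, with 5 hindbrains or 6 eyes in each library and 3 libraries in each of 17 groups. Hindbrains, which hold the neurons whose axons were severed, were taken 3 days, 7 days and 3 weeks after complete spinal cord transection (SCI) of tadpoles labelled stage 53, against unoperated, age-matched tadpoles at each time. They were also taken at the same 3 times after SCI of juvenile frogs, 1 to 3 months past metamorphosis, against a single group of unoperated frogs, so the frog comparisons share their controls. Eyes of juvenile frogs of the same age were taken 3 days, 11 days and 3 weeks after crush of 1 optic nerve in the orbit (ONC), against the contralateral, unoperated eyes of the same times. Eyes of surgically naive frogs formed a further group. Stage 53 is the label of all tadpole groups, although those tadpoles grew for up to 3 weeks between the first and the last sampling. The names of the 3 frog hindbrain controls, and theirs alone, carry the letter R, and those of 8 eye libraries the letter B (ONC 3 days 2, contralateral 3 days 1, ONC 11 days 2, contralateral 11 days 3), and the labels do not say what the letters mean. Each comparison of a frog SCI group with frog controls, and of frog with tadpole controls, therefore cannot be told apart from the letter.

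The deposited unit is FPKM, read density scaled to transcript length and to library size, so levels can be set side by side between genes. Relative depth, read from the steps between the values of scarcely expressed entries, was 0.722 to 1.48 times that of 1 unoperated tadpole library of 7 days among hindbrains, and 0.629 to 1.37 times that among eyes. Across entries, replicate hindbrains correlated at 0.987 to 0.995 and replicate eyes at 0.947 to 0.993. The tissue labels held: the summed FPKM of hindbrain markers was 89.6 to 188 in hindbrain libraries and 11.5 to 21.0 in eye libraries. Entries that averaged 0.45 FPKM or more in either group of a comparison were tested with limma on log2(FPKM + 0.5), and a call means a p of 0.05 or less after Benjamini-Hochberg adjustment over all entries tested. Fold changes are given on that scale with their standard error, and the added 0.5 FPKM damps them for entries near 0. 67 of the 72 members were tested at least once. The other 5 (CCNB1 entries 1 and 2, CCNB2 entry 1, BIRC5 entry 2 and CDCA8 entry 3) stayed under that minimum, with 0.269 FPKM as their highest group mean. The row identifiers carry scaffold positions of the JGI v7b assembly: TOP2A lies at 6324827 to 6347902 on the minus strand of scaffold JGIv7b.000075417, and the CDK1 entries at 1468025 to 1479240 on the minus strand of JGIv7b.000079772 (entry 1) and at 4260986 to 4272701 on the plus strand of JGIv7b.000018192 (entry 2). Exons and untranslated regions are not annotated in the files.

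Across the hindbrain groups, the members were highest in the youngest tadpoles and lowest in frogs. The FPKM of the 72 entries summed to 451, 463 and 458 in the 3 control libraries of 3 days, to 149, 156 and 155 in those of 7 days, to 102, 98.0 and 99.5 in those of 3 weeks, and to 65.5, 64.5 and 69.8 in frog controls. Of the 67 tested members, 64 had their highest hindbrain mean in the 3-day tadpole controls, and 60 had their lowest in a frog group. TOP2A, the topoisomerase that untangles sister chromatids, spanned the widest range, at 32.7 ± 0.289 FPKM in 3-day controls and 0.570 ± 0.343 FPKM in frog controls (SD, n = 3 each). MKI67, the gene of the Ki-67 proliferation antigen, hardly shared this course: it stood at 7.82 ± 0.664 FPKM in 3-day controls, 6.74 ± 0.244 FPKM in 7-day controls, 5.00 ± 0.349 FPKM in 3-week controls and 5.79 ± 0.666 FPKM in frog controls. In frog controls the MKI67 level was thus among the highest of the members, where TOP2A and both CDK1 entries stood below 0.6 FPKM. In the naive eye the members summed to 164, 180 and 179 FPKM, above every frog hindbrain library. All entries together summed to 747120 to 795390 FPKM in naive eyes and to 374370 to 390830 FPKM in frog hindbrain controls. The difference between eye and hindbrain was not tested.

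**Figure D1:**
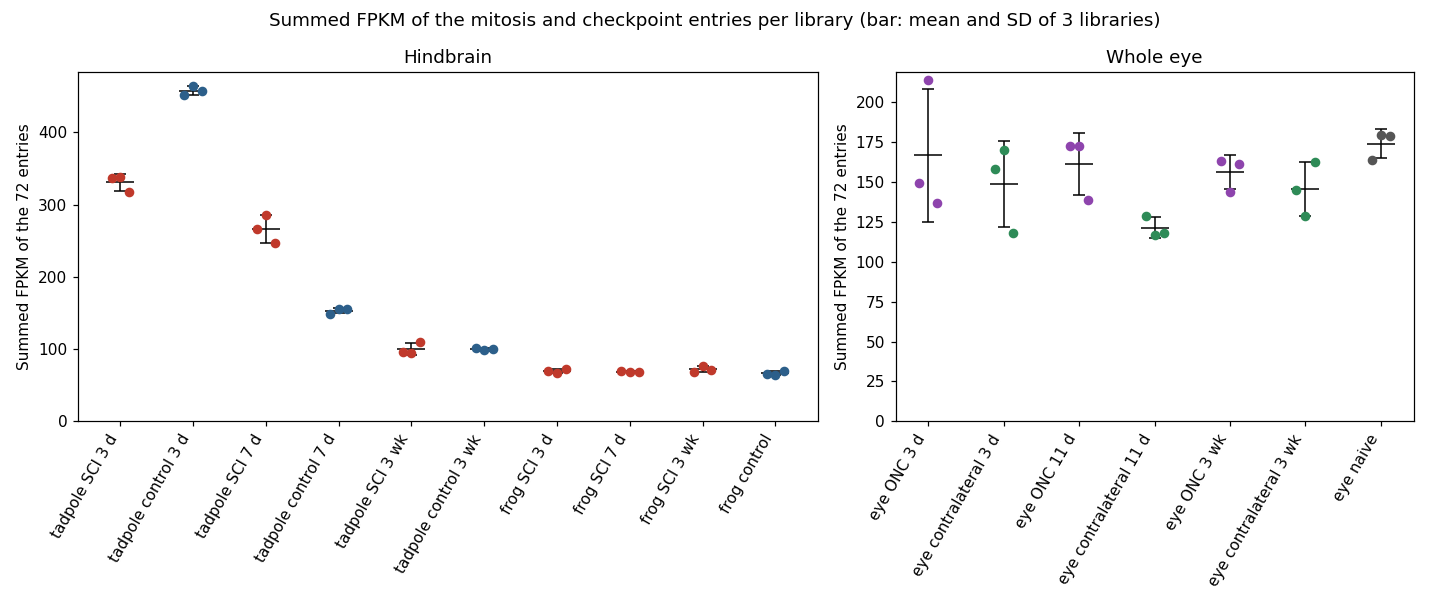
Summed FPKM of the 72 mitosis and checkpoint entries in each library (points), with the mean and SD of the 3 libraries of a group (bars), for hindbrain groups on the left and whole-eye groups on the right. The 3-day tadpole controls sit at 451 to 463 and all 12 frog hindbrain libraries between 64.5 and 76.7, while SCI tadpoles lie below their controls at 3 days and above them at 7 days.

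**Figure D2:**
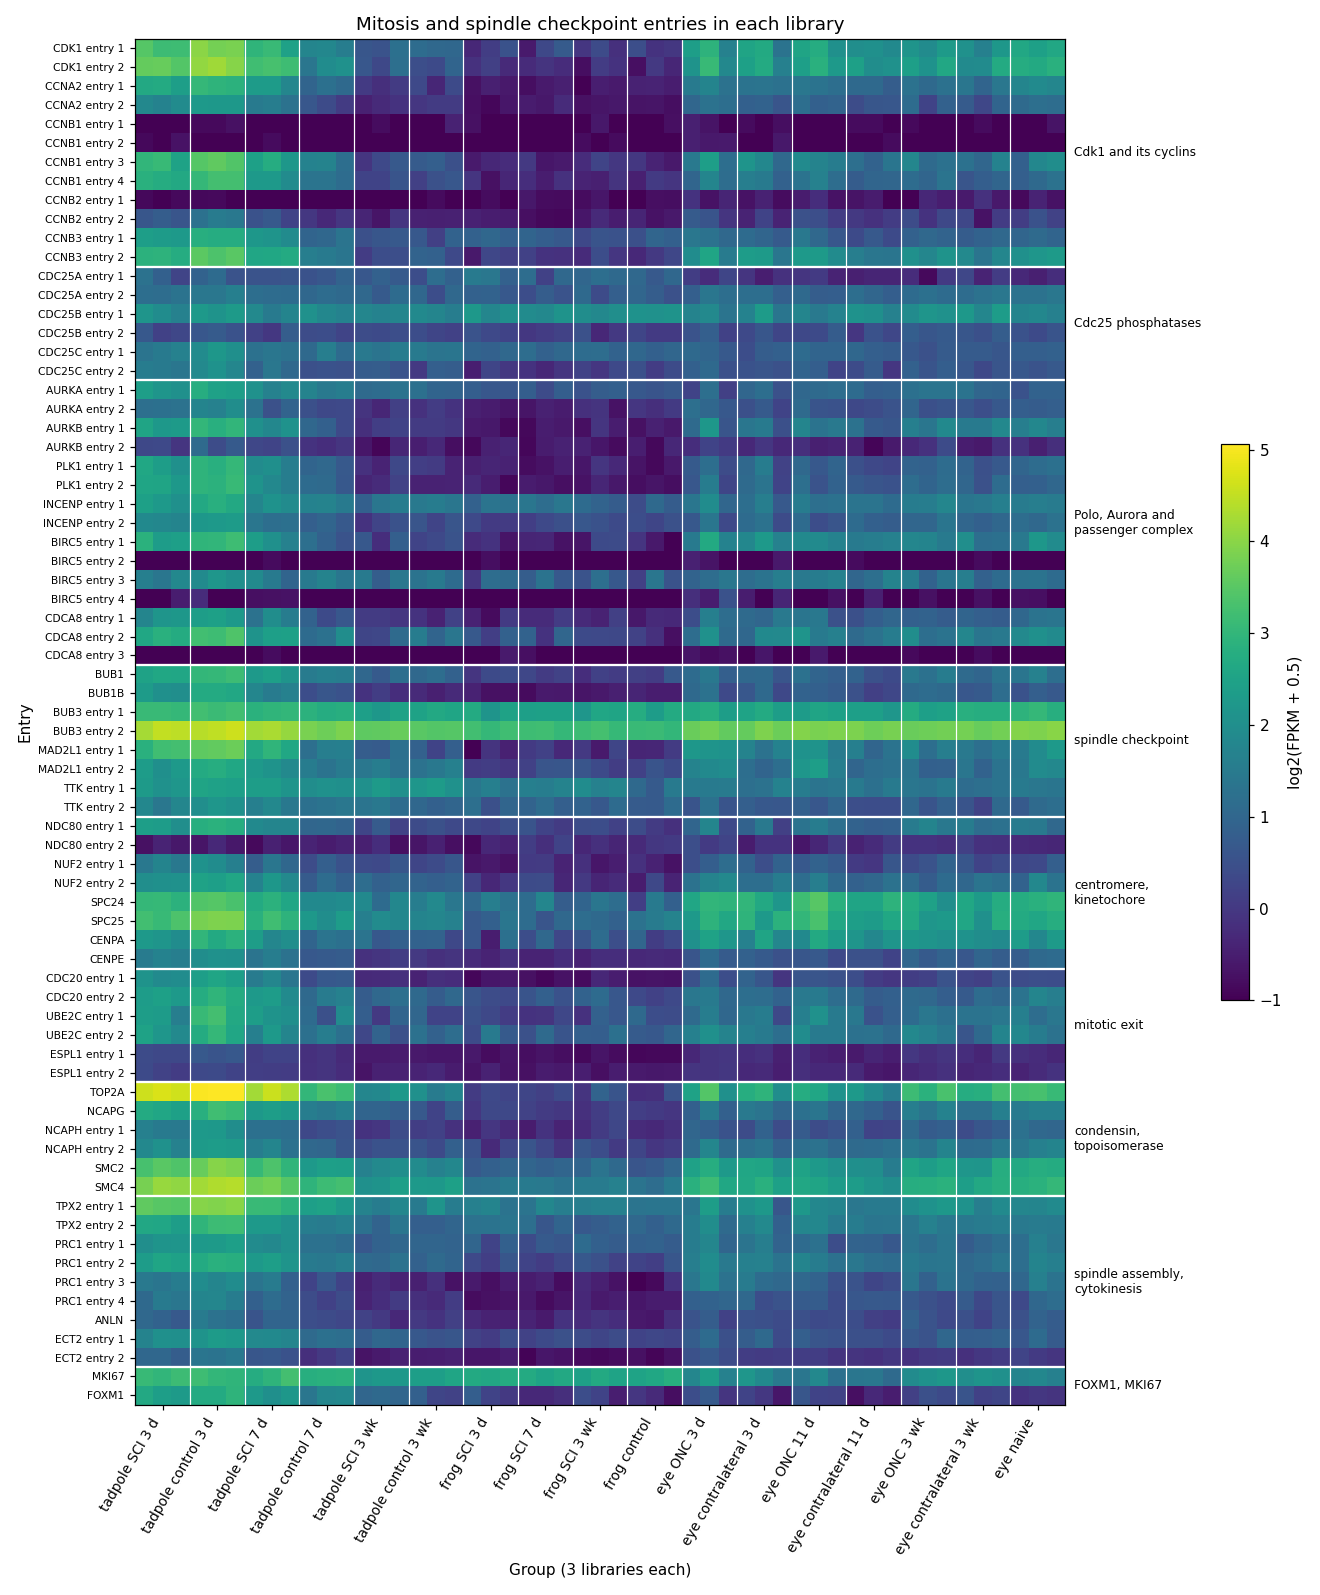
log2(FPKM + 0.5) of each of the 72 entries (down the page, ordered by role) in each of the 51 libraries (across, 3 per group). Most entries darken from the first tadpole columns to the frog columns, while the CDC25A and CDC25B entries, BUB3 entry 1 and MKI67 keep a similar shade across the hindbrain groups.

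The unoperated tadpoles show how these genes move in the growing hindbrain, and the same control libraries enter the injury comparisons. Between 3 and 7 days 62 of the 65 tested members fell and none rose, with a median log2 fold change of -1.44, where 26% of all tested entries were called lower and the median over all entries was -0.01. CCNB2 entry 2, AURKB entry 2 and both ESPL1 entries passed the filter only through the 3-day group, where they therefore had to be higher. These 4 were all called lower. Among the 61 that passed in both groups 58 fell, with a median of -1.46. CDK1, the kinase that drives entry into mitosis, fell in both entries: entry 2 stood at 2.10, 3.38 and 3.71 FPKM in 7-day controls, against 16.5, 17.9 and 15.2 FPKM in 3-day controls (log2 fold change -2.28 ± 0.17, adjusted p = 3.35e-05). Cyclin B1 entry 3 stood at 2.71, 2.78 and 1.79 FPKM in 7-day controls, against 10.5, 11.5 and 10.3 FPKM in 3-day controls (log2 fold change -1.96 ± 0.14, adjusted p = 3.26e-05). BUB1B, the checkpoint protein BubR1, stood at 0.851, 1.04 and 0.932 FPKM in 7-day controls, against 5.99, 6.07 and 5.68 FPKM in 3-day controls (log2 fold change -2.16 ± 0.11, adjusted p = 9.06e-06). The groups did not overlap for these entries, nor for 64 of the 65 tested, where 30.1% of all entries were lower without overlap. The fall was deepest for CDK1 and its cyclins, with a median of -1.91 and all 9 tested entries called, and shallowest for the Cdc25 phosphatases, with a median of -0.38 and 4 of 6 called. All 12 tested entries of Polo, Aurora and the chromosomal passenger complex fell, as did all 8 checkpoint, 7 kinetochore, 6 mitotic exit, 6 condensin and topoisomerase, and 9 spindle and cytokinesis entries. CDC25A entry 1, CDC25B entry 2 and MKI67 were not called, at -0.15, -0.29 and -0.20. Leaving out any of the 6 libraries left 59 to 61 called. Outside the members, DNA replication genes had 58 of 65 entries lower and none higher, and progenitor and radial glia markers had 33 of 44 lower and 1 higher. Red blood cell markers had 12 of 14 lower, with summed FPKM of 472 to 649 in 7-day controls and 3880.0 to 5471 in 3-day controls and 2 of their 18 entries at 0 in both groups. The part of blood or of progenitor number in the members' change was not tested.

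Between 7 days and 3 weeks the same controls showed a smaller difference, and limma called 3 of 61 tested members lower, where 0.418% of all entries were. TOP2A stood at 3.61, 2.36 and 2.85 FPKM in 3-week controls, against 7.56, 9.56 and 8.41 FPKM in 7-day controls (log2 fold change -1.40 ± 0.15, adjusted p = 0.0111). PLK1 entry 2, of Polo-like kinase 1, stood at 0.243, 0.246 and 0.265 FPKM in 3-week controls, against 1.68, 1.65 and 1.10 FPKM in 7-day controls (log2 fold change -1.38 ± 0.18, adjusted p = 0.0252). It passed the filter only through the 7-day group, where it therefore had to be higher. SMC4, a core subunit of condensin, was the third (-0.80 ± 0.12). 8 of the 61 passed in 1 group only, and among the 53 that passed in both groups 2 fell, with a median of -0.46. The median of the 61 was -0.50, 57 were negative, 40 had an unadjusted p under 0.05, and 45 were lower without overlap, where 12.2% of all entries were. Without 1 of the 6 libraries the count was 0 to 2: 2 without 3-week control 1, 0 without 7-day control 2, and 1 without each of the other 4. With all tadpole groups in 1 fit it was 31.

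**Figure D3:**
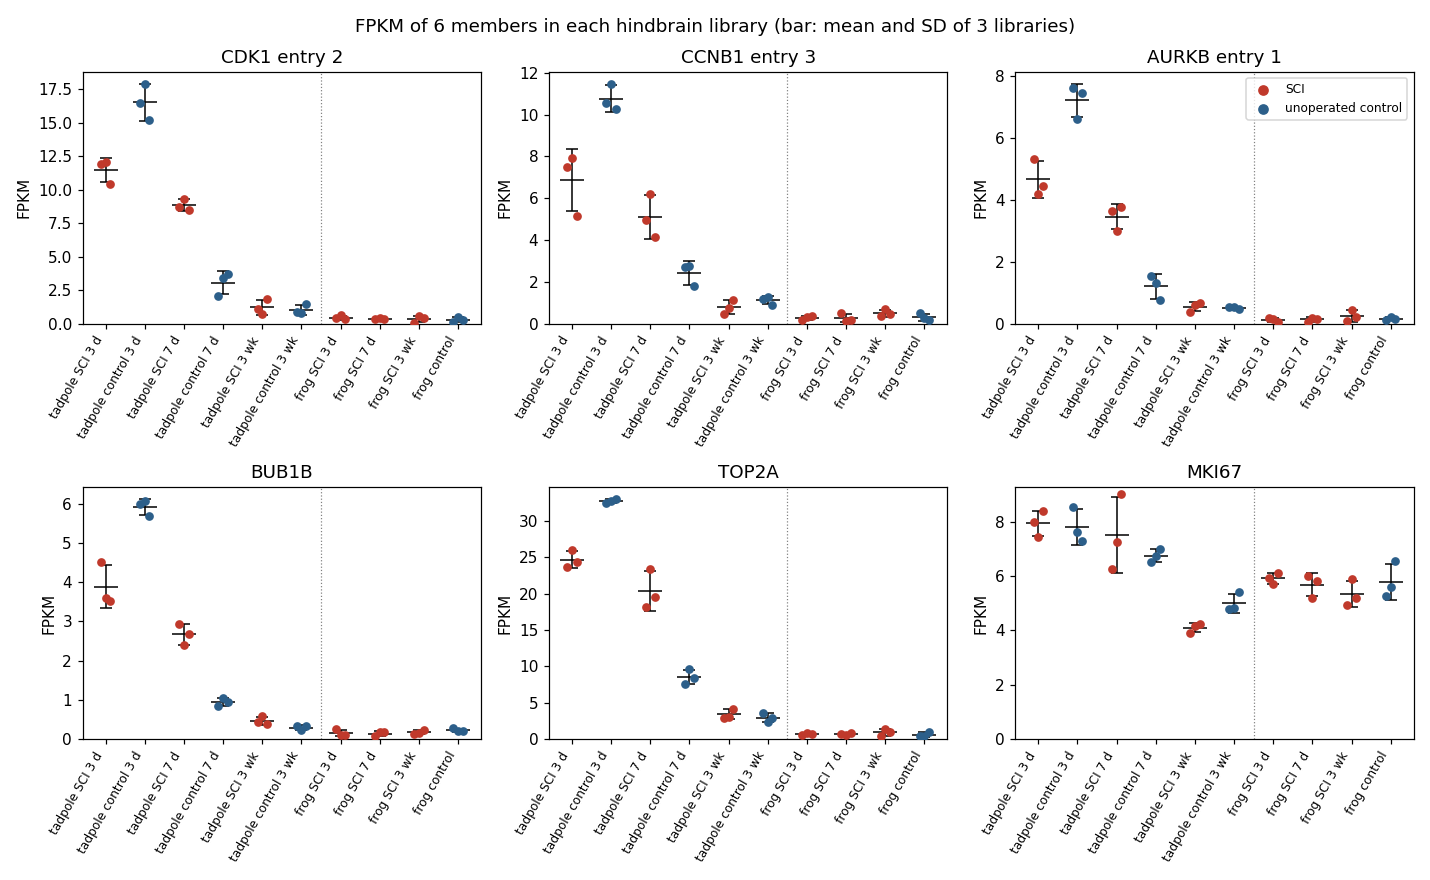
FPKM of 6 members (panels) in each hindbrain library (points; SCI red, unoperated control blue), with the mean and SD of 3 libraries (bars); the dotted line separates tadpole from frog groups. For CDK1 entry 2, CCNB1 entry 3, AURKB entry 1, BUB1B and TOP2A the SCI libraries lie below their controls at 3 days and above them at 7 days, and the frog groups lie near 0. MKI67 stays between 3.91 and 9.02 FPKM.

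Unoperated frogs, set against the oldest unoperated tadpoles, had less of many members, in a comparison where many other genes differed in both directions too. 23 of 53 tested members fell and 1 rose, with a median of -0.52, where 16.4% of all entries were called lower and 18.1% higher. TOP2A stood at 0.369, 0.375 and 0.966 FPKM in frogs, against 3.61, 2.36 and 2.85 FPKM in tadpoles (log2 fold change -1.71 ± 0.24, adjusted p = 0.00163). CDK1 entry 1 stood at 0.882, 0.432 and 0.481 FPKM in frogs, against 1.70, 1.57 and 1.55 FPKM in tadpoles (log2 fold change -0.96 ± 0.19, adjusted p = 0.00667), and CCNB1 entry 3 at 0.490, 0.260 and 0.166 FPKM in frogs, against 1.17, 1.28 and 0.903 FPKM in tadpoles (log2 fold change -1.02 ± 0.21, adjusted p = 0.00761). All 3 entries were called lower in frogs, as were 16.4% of all entries. Both checkpoint entries of MAD2L1, which binds and holds the APC/C activator CDC20, fell (-0.87 ± 0.24 and -1.08 ± 0.17). BUB1, BUB3 entry 2 and TTK entry 1, the checkpoint kinase Mps1, fell as well. Condensin subunits SMC2 and SMC4 fell too (-1.02 ± 0.16 and -0.99 ± 0.14), and so did FOXM1, a transcription factor that drives G2 and M phase genes (-0.80 ± 0.26). CDC25B entry 1, a phosphatase that activates CDK1, was the single member that rose, at 3.77, 3.73 and 3.82 FPKM in frogs, against 3.16, 2.90 and 2.49 FPKM in tadpoles (log2 fold change 0.36 ± 0.12, adjusted p = 0.0494). This call was lost without any 1 of the 6 libraries (limma adjusted p of 0.0519 to 0.138), and with median-of-ratios scaling (0.0594), the replicate block (0.0632) or no filter on low values (0.0714). 15 of the 53 passed the filter only through the tadpole group, where they therefore had to be higher. 10 of these 15 were called lower in frogs. CCNB1 entry 3, MAD2L1 entry 1 and FOXM1, named above, were among the 15. Among the 38 that passed in both groups, 13 fell and 1 rose, with a median of -0.37. The count was 13 without tadpole control 1, 14 without tadpole control 3 and 16 to 18 without any other library, and 11 when 0.45 FPKM was required in every library. DNA replication genes had 26 of 57 entries lower and none higher, among them MCM7, a subunit of the replicative helicase (-1.29), and RRM2, of ribonucleotide reductase (-1.15). Progenitor and radial glia markers had 22 of 39 lower and 1 higher, with summed FPKM of 1244 to 1351 in frogs and 1807 to 2356 in tadpoles, and their part in the members' difference was not tested.

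At 3 days after SCI the tadpole hindbrain held less of almost every member than its controls. 17 of 65 tested members fell and none rose, and 64 of the 65 were negative, with a median of -0.44, where 1.29% of all entries were called lower and the median over all entries was 0.00. The summed FPKM of the members was 337, 338 and 317 in SCI hindbrains, against 451, 463 and 458 in controls. CDK1 entry 1 stood at 10.6, 8.44 and 8.64 FPKM in SCI hindbrains, against 15.7, 13.5 and 14.0 FPKM in controls (log2 fold change -0.62 ± 0.10, adjusted p = 0.0306), and entry 2 at 11.9, 12.1 and 10.4 FPKM in SCI hindbrains, against 16.5, 17.9 and 15.2 FPKM in controls (log2 fold change -0.51 ± 0.09, adjusted p = 0.0356). Both entries of the kinase were lower in every SCI library than in any control library. Among its partners, cyclin B2 entry 2 stood at 1.04, 1.24 and 1.01 FPKM in SCI hindbrains, against 1.90, 2.39 and 2.20 FPKM in controls (log2 fold change -0.74 ± 0.13, adjusted p = 0.0367). Cyclin B3 entry 2 stood at 6.96, 7.07 and 6.30 FPKM in SCI hindbrains, against 11.1, 9.90 and 10.9 FPKM in controls (log2 fold change -0.62 ± 0.08, adjusted p = 0.0204). The B1 cyclins, at -0.63 ± 0.14 in entry 3 and -0.43 ± 0.09 in entry 4, were lower without overlap but were not called (adjusted p = 0.0597 and 0.0563).

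At the kinetochore, CENPA, the histone H3 variant that marks centromeres, stood at 4.25, 3.98 and 3.37 FPKM in SCI hindbrains of 3 days, against 7.44, 5.89 and 6.99 FPKM in controls (log2 fold change -0.74 ± 0.12, adjusted p = 0.0302). SPC25, a subunit of the NDC80 complex that grips microtubules, stood at 8.88, 8.07 and 9.79 FPKM in SCI hindbrains, against 13.6, 14.3 and 14.1 FPKM in controls (log2 fold change -0.62 ± 0.08, adjusted p = 0.0204). NCAPH entry 1, the condensin subunit that bridges SMC2 and SMC4, stood at 2.61, 2.34 and 2.24 FPKM in SCI hindbrains, against 4.32, 4.20 and 3.40 FPKM in controls (log2 fold change -0.62 ± 0.12, adjusted p = 0.0413). None of these 3 overlapped between groups. AURKB entry 1, the catalytic subunit of the chromosomal passenger complex, fell (-0.58 ± 0.11), and so did its partners INCENP entry 2 (-0.46 ± 0.09) and CDCA8 entry 2, or borealin (-0.54 ± 0.09). Of the checkpoint, BUB1 and BUB1B fell (-0.51 ± 0.08 and -0.56 ± 0.11), as did both entries of TPX2, the factor that recruits Aurora A to the spindle (-0.44 ± 0.07 and -0.57 ± 0.10). TOP2A stood at 23.6, 26.0 and 24.4 FPKM in SCI hindbrains, against 32.4, 32.8 and 33.0 FPKM in controls (log2 fold change -0.40 ± 0.06, adjusted p = 0.028). The PLK1 entries were at -0.60 ± 0.14 and -0.53 ± 0.11 and not called (adjusted p = 0.0654 and 0.0543), and the lowest value of all, UBE2C entry 1, a ubiquitin-conjugating enzyme of the APC/C, was -0.90 ± 0.22 (adjusted p = 0.0739). MKI67 had 7.99, 7.44 and 8.38 FPKM in SCI hindbrains, against 8.56, 7.62 and 7.27 FPKM in controls, with overlapping groups (log2 fold change 0.02 ± 0.09, adjusted p = 0.912).

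By role, the calls of 3 days were spread over most steps of division: 5 of 9 CDK1 and cyclin entries, 3 of 12 of Polo, Aurora and the passenger complex, 2 of 8 of the checkpoint, 3 of 7 of the kinetochore, 2 of 6 of condensin and topoisomerase, and 2 of 9 of spindle and cytokinesis, with role medians from -0.51 to -0.42. None of the 6 Cdc25 entries (median -0.28) or of the 6 mitotic exit entries (median -0.46) was called. 58 members were lower without overlap, where 13.1% of all entries were, and 57 had an unadjusted p under 0.05. The number of calls depended on single libraries: it was 7 without SCI library 1, 1 without SCI library 3, 0 without SCI library 2, 1 without control 1, and 0 without control 2 or control 3, while the median stayed between -0.47 and -0.42. Same-numbered SCI and control libraries deviated together at this time, and with the replicate number as a block 31 members fell and none rose. The count was 8 with all tadpole groups in 1 fit and 3 with no filter on low values. Other mitosis genes outside the list had 15 of 103 entries lower and none higher, among them CDCA3 (-0.70) and PTTG1, or securin, the inhibitor of separase (-0.69), and DNA replication genes 17 of 65 lower and none higher, among them PCNA, the sliding clamp of DNA polymerase (-0.63). Progenitor and radial glia markers had 8 of 44 entries lower, with summed FPKM of 5458 to 6022 in SCI hindbrains and 5677 to 6682 in controls. Red blood cell markers had 6 of 14 lower, at 1888 to 2217 in SCI hindbrains and 3880.0 to 5471 in controls. The part of progenitor number or of blood in the members' fall was not tested.

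At 7 days the direction was the opposite, and the members were higher in the SCI hindbrain. 36 of 65 tested members rose and none fell, with a median of 0.68, where 2.85% of all entries were called higher and the median over all entries was 0.01. The summed FPKM was 266, 286 and 246 in SCI hindbrains, against 149, 156 and 155 in controls. These SCI sums lay below the 337, 338 and 317 of SCI hindbrains of 3 days, so rose here means higher than in controls of the same time. CDK1 entry 2 stood at 8.71, 9.31 and 8.51 FPKM in SCI hindbrains, against 2.10, 3.38 and 3.71 FPKM in controls, the largest change among the members (log2 fold change 1.42 ± 0.18, adjusted p = 0.00854). CDK1 entry 1 stood at 7.38, 8.17 and 5.07 FPKM in SCI hindbrains, against 2.90, 3.01 and 2.49 FPKM in controls (log2 fold change 1.14 ± 0.17, adjusted p = 0.0154). Every SCI library lay above every control library in both entries. Among the cyclins, B3 entry 2 stood at 5.54, 5.62 and 6.09 FPKM in SCI hindbrains, against 2.54, 2.30 and 2.08 FPKM in controls (log2 fold change 1.16 ± 0.12, adjusted p = 0.00514), and B1 entry 3 at 4.98, 6.20 and 4.13 FPKM in SCI hindbrains, against 2.71, 2.78 and 1.79 FPKM in controls (log2 fold change 0.94 ± 0.19, adjusted p = 0.0308). CCNB1 entry 4 rose by 0.88 ± 0.15 and both CCNA2 entries by 1.06 ± 0.18 and 1.08 ± 0.19, so that 8 of 9 entries of CDK1 and its cyclins rose. The exception was CCNB2 entry 2, at 0.936, 1.11 and 0.668 FPKM in SCI hindbrains, against 0.481, 0.307 and 0.476 FPKM in controls, which was higher without overlap but not called (log2 fold change 0.60 ± 0.19, adjusted p = 0.0987). It passed the filter only through the SCI group, where it therefore had to be higher.

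At 7 days 5 of 8 checkpoint entries and 5 of 12 entries of Polo, Aurora and the passenger complex rose. MAD2L1 entry 1 stood at 5.81, 7.27 and 5.60 FPKM in SCI hindbrains, against 1.82, 2.50 and 2.55 FPKM in controls (log2 fold change 1.27 ± 0.16, adjusted p = 0.00841). BUB1B stood at 2.93, 2.40 and 2.67 FPKM in SCI hindbrains, against 0.851, 1.04 and 0.932 FPKM in controls (log2 fold change 1.14 ± 0.15, adjusted p = 0.00938), with BUB1, BUB3 entry 2 and MAD2L1 entry 2 also called. AURKB entry 1 stood at 3.63, 2.99 and 3.75 FPKM in SCI hindbrains, against 1.54, 1.33 and 0.761 FPKM in controls (log2 fold change 1.23 ± 0.20, adjusted p = 0.0178), and BIRC5 entry 1, the passenger protein survivin, at 4.67, 3.65 and 2.68 FPKM in SCI hindbrains, against 1.83, 1.35 and 0.966 FPKM in controls (log2 fold change 1.15 ± 0.22, adjusted p = 0.0277). None of these entries overlapped between groups. PLK1 rose in entry 1 (3.29, 3.55 and 2.49 FPKM in SCI hindbrains, against 1.44, 1.57 and 1.13 FPKM in controls) and entry 2 (3.84, 3.06 and 2.48 FPKM in SCI hindbrains, against 1.68, 1.65 and 1.10 FPKM in controls), by 0.94 ± 0.17 and 0.87 ± 0.19. TOP2A stood at 18.2, 23.4 and 19.5 FPKM in SCI hindbrains, against 7.56, 9.56 and 8.41 FPKM in controls, and was again the most abundant member of the SCI group (log2 fold change 1.21 ± 0.12, adjusted p = 0.00384). At the kinetochore 6 of 7 entries rose: SPC24, SPC25, CENPA, NDC80 entry 1, NUF2 entry 2 and the motor CENPE, with fold changes from 0.68 in CENPE to 1.00 in NUF2 entry 2. 6 of 9 spindle and cytokinesis entries and 5 of 6 condensin and topoisomerase entries rose as well.

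The Cdc25 phosphatases, which act at the start of mitosis, and the genes of its exit held few calls at 7 days. None of the 6 Cdc25 entries was called, and their median was 0.01: CDC25B entry 1, the most negative member at 7 days, had 3.14, 2.33 and 2.82 FPKM in SCI hindbrains, against 3.70, 3.03 and 2.70 FPKM in controls (-0.16 ± 0.16). Of the mitotic exit entries only CDC20 entry 1, an activator of the APC/C, was called (0.97 ± 0.17), although all were positive. CDC20 entry 2 was at 0.75, the UBE2C entries at 1.00 ± 0.31 and 0.53 ± 0.19, and those of separase, ESPL1, at 0.34 ± 0.17 and 0.25 ± 0.17. In the direct comparison of the 7-day and 3-day responses below, both CDC20 entries, both UBE2C entries and ESPL1 entry 1 were called higher. The transcription factor FOXM1 was higher without overlap but not called (log2 fold change 0.50 ± 0.16, adjusted p = 0.0907). MKI67 had 6.27, 7.26 and 9.02 FPKM in SCI hindbrains, against 6.51, 6.73 and 7.00 FPKM in controls, with overlapping groups (log2 fold change 0.13 ± 0.13, adjusted p = 0.568).

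In all, 55 members were higher without overlap at 7 days, where 17% of all entries were, and all 36 called members passed the filter in both groups. CCNB2 entry 2, AURKB entry 2 and both ESPL1 entries passed only through the SCI group, where they therefore had to be higher. Among the 61 that passed in both groups the median was 0.71. The number of calls again depended on single libraries, with 5 without SCI library 2 or control 2, 7 without control 1, 14 without control 3, 19 without SCI library 1 and 40 without SCI library 3, while the median stayed between 0.64 and 0.74. Outside the list, 39 of 102 other mitosis entries rose and none fell, among them CDCA5, or sororin, which protects cohesion (1.43 and 1.15), and the spindle motor KIF11 (1.08). 25 of 63 DNA replication entries rose and none fell, among them TYMS (1.42), RRM2 (1.28) and MCM5 (1.22), and 3 of 29 G1 and S phase entries rose: CDK2, E2F1 and E2F7. 16 of 42 progenitor and radial glia entries rose and 1 fell, with summed FPKM of 4061 to 4775 in SCI hindbrains and 2465 to 2656 in controls. Red blood cell markers had 5 of 10 entries higher, at 990.3 to 1697 FPKM in SCI hindbrains and 472 to 649 FPKM in controls. SCI libraries 2 and 3 also held lens markers, at 389 and 369 FPKM, against 33.4 FPKM in SCI library 1 and 26.5 to 40.7 FPKM in controls, where naive eyes held 177420.0 to 189050.0 FPKM. The member sums of SCI libraries 1, 2 and 3 were 266, 286 and 246 FPKM. The part of blood, lens tissue or progenitor number in the members' difference was not tested.

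The responses at both times were compared directly. The difference between the 7-day and the 3-day response of the tadpole, an interaction over 12 libraries with no control in common, was positive for 64 of 65 tested members and called for 56, none of them lower, with a median of 1.15, where 8.54% of all entries were called higher. It was largest for CDK1 entry 2 (1.93 ± 0.21), UBE2C entry 1 (1.90 ± 0.43), AURKB entry 1 (1.82 ± 0.23), MAD2L1 entry 1 (1.80 ± 0.20) and CCNB3 entry 2 (1.77 ± 0.13). All 9 tested entries of CDK1 and its cyclins, all 7 of the kinetochore, all 6 of condensin and topoisomerase and all 9 of spindle and cytokinesis were called. The 9 members not called were both entries each of CDC25A and CDC25B, CDC25C entry 1, BUB3 entry 1, BIRC5 entry 3, ESPL1 entry 2 and MKI67. Leaving out any 1 of the 12 libraries left 52 to 56 called. Across the 65 members the 3-day and 7-day fold changes were related at Pearson's r of -0.54 and Spearman's rho of -0.50, a description over genes that share the same libraries within each time.

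**Figure D4:**
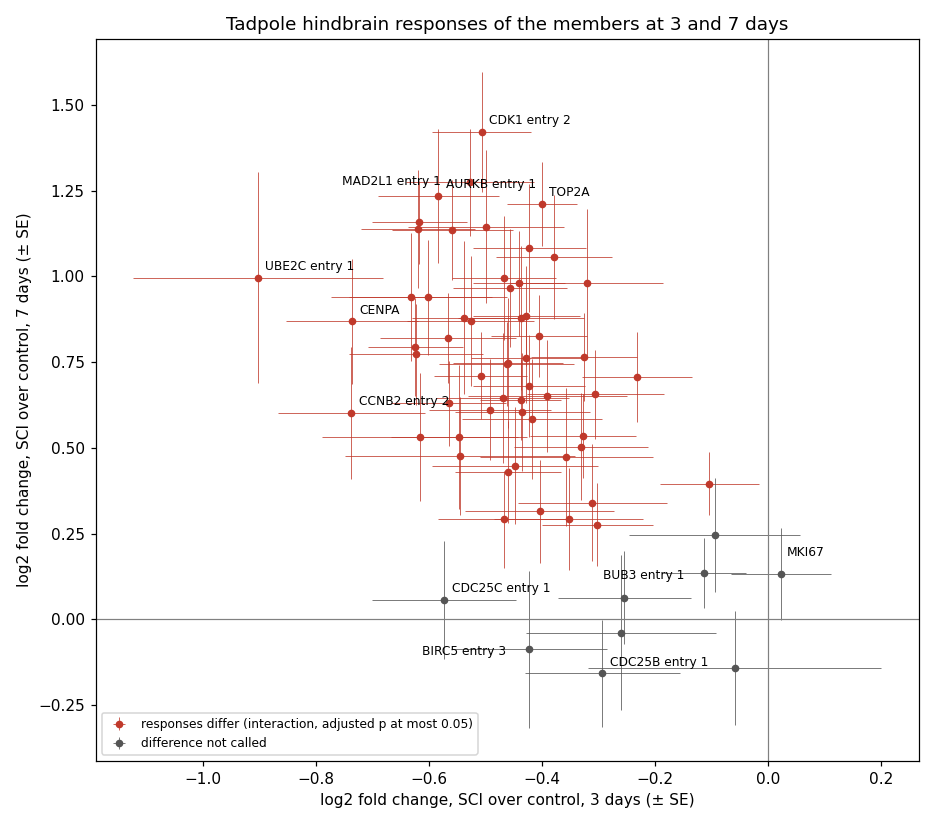
log2 fold change of each tested member (points, with standard errors) in the tadpole SCI hindbrain against its controls at 3 days (horizontal axis) and at 7 days (vertical axis). 56 members, in red, differed between the times by the interaction test, and most lie at the upper left, lower at 3 days and higher at 7 days; MKI67 and the CDC25A and CDC25B entries are among the 9 uncalled members, in grey, which lie near 0 on the vertical axis.

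The 7-day SCI hindbrains stayed below the level of the 3-day controls. Set against those younger controls, which differ from them in age as well as injury, 53 of 65 members were lower in the 7-day SCI hindbrain and none was higher, with a median of -0.76, where 9.17% of all entries were called lower. CDK1 entry 2 stood at 8.71, 9.31 and 8.51 FPKM in 7-day SCI hindbrains, against 16.5, 17.9 and 15.2 FPKM in 3-day controls (log2 fold change -0.86 ± 0.09, adjusted p = 0.00359), and TOP2A at 18.2, 23.4 and 19.5 FPKM in 7-day SCI hindbrains, against 32.4, 32.8 and 33.0 FPKM in 3-day controls (log2 fold change -0.68 ± 0.10, adjusted p = 0.00813). Both were called lower, as were 9.17% of all entries. In member sums, the SCI hindbrains had 330.5 ± 12.0 FPKM at 3 days, 266 ± 19.8 FPKM at 7 days and 100.0 ± 8.96 FPKM at 3 weeks, and the controls 457 ± 6.22 FPKM, 153 ± 3.76 FPKM and 99.8 ± 1.89 FPKM at those times (SD, n = 3 each). The count against younger controls was 20 without 3-day control 2, 21 without 3-day control 3, 34 without 3-day control 1 and 45 to 51 without an SCI library.

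At 3 weeks no difference between SCI and control tadpoles was detected in these genes. limma called 0 of 56 tested members, where 0.101% of all entries were called, and 5 had an unadjusted p under 0.05, 2 higher and 3 lower. The alternatives tried, leaving out each library included, also called 0. The median was 0.03, 30 members were positive and 26 negative, and 6 lay above and 3 below their controls without overlap, where 11.4% and 11.9% of all entries did. FOXM1 had 1.52, 1.62 and 1.51 FPKM in SCI hindbrains, against 1.30, 0.699 and 0.645 FPKM in controls, the largest positive value (log2 fold change 0.60 ± 0.20, adjusted p = 0.204). TOP2A had 2.92, 3.06 and 4.18 FPKM in SCI hindbrains, against 3.61, 2.36 and 2.85 FPKM in controls, and CDK1 entry 2 1.07, 0.743 and 1.82 FPKM in SCI hindbrains, against 0.880, 0.783 and 1.44 FPKM in controls, both with overlap. MKI67 had 3.91, 4.17 and 4.21 FPKM in SCI hindbrains, against 4.79, 4.80 and 5.40 FPKM in controls, lower without overlap but not called (log2 fold change -0.26 ± 0.10, adjusted p = 0.244).

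The frog hindbrain showed no detectable change in these genes after the same injury. limma called 0 of 42 tested members at 3 days, 0 of 42 at 7 days and 0 of 44 at 3 weeks, where 11%, 1.42% and 0.403% of all entries were called at those times. An unadjusted p under 0.05 was found for 5 members at 3 days (3 higher, 2 lower), 7 at 7 days (3 higher, 4 lower) and 4 at 3 weeks (3 higher, 1 lower). The alternatives gave 0 as well, with 2 exceptions. They were 1 lower at 3 days with no filter on low values and 1 higher at 3 weeks with all frog hindbrain groups in 1 fit. The medians were 0.05, 0.05 and 0.11, and the member sums 69.6 ± 2.17 FPKM, 68.8 ± 0.331 FPKM and 71.9 ± 4.28 FPKM in SCI frogs of 3 days, 7 days and 3 weeks, and 66.6 ± 2.79 FPKM in their shared controls (SD, n = 3 each).

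Much of the core of mitosis was scarce in the frog hindbrain. Of the 72 entries, 38 reached a mean of 0.45 FPKM in frog controls. AURKB entry 1 had 0.178, 0.150 and 0.0465 FPKM in SCI frogs of 3 days and 0.0482, 0.198 and 0.161 FPKM in those of 7 days, against 0.108, 0.230 and 0.165 FPKM in frog controls, and was not tested. BUB1B, also not tested, had 0.253, 0.107 and 0.0992 FPKM in SCI frogs of 3 days and 0.0686, 0.176 and 0.172 FPKM in those of 7 days, against 0.269, 0.204 and 0.195 FPKM in controls. Both genes averaged under the minimum for testing in operated and unoperated frogs alike. TOP2A had 0.539, 0.769 and 0.687 FPKM in SCI frogs of 3 days, 0.713, 0.605 and 0.778 FPKM in those of 7 days and 0.437, 1.40 and 0.992 FPKM in those of 3 weeks, against 0.369, 0.375 and 0.966 FPKM in controls, with overlap at each time and fold changes of 0.16 ± 0.25, 0.21 ± 0.24 and 0.42 ± 0.31. SPC25 had 1.11, 1.31 and 2.09 FPKM in SCI frogs of 3 days, 1.71, 1.02 and 1.58 FPKM in those of 7 days and 1.74, 1.62 and 1.35 FPKM in those of 3 weeks, against 1.92, 2.36 and 2.77 FPKM in controls (-0.53 ± 0.21, -0.57 ± 0.19 and -0.46 ± 0.16, adjusted p = 0.137, 0.172 and 0.171). It was not called at any of these times, and the comparisons share their controls. Among frog SCI libraries, microglia and macrophage markers had 3 of 12 entries higher at 3 days and at 7 days and 2 of 11 at 3 weeks, with summed FPKM of 34.0 to 43.2 in SCI frogs and 17.5 to 21.1 in controls, and whether they bear on the members was not tested. Lens markers summed to 272 to 446 FPKM in SCI frogs of 3 days, 86.5 to 215 FPKM in those of 7 days and 92.0 to 596 FPKM in those of 3 weeks, against 60.8 to 296 FPKM in frog controls.

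The tadpole and frog responses were also compared with each other, as an interaction over 12 libraries at each time. At 3 days the tadpole response was lower than that of the frog in 6 of 65 tested members and higher in none, with a median of -0.49, where 3.23% of all entries were called lower. They were CDCA8 entry 2 (-1.35 ± 0.32), PLK1 entry 1 (-0.90 ± 0.21), both TPX2 entries (-0.65 ± 0.15 and -0.89 ± 0.15), CCNB2 entry 2 (-0.80 ± 0.20) and CDC20 entry 2 (-0.62 ± 0.16). For CDCA8 entry 2 the tadpole fold change was -0.54 and the frog fold change 0.81 ± 0.30, which was not called (limma adjusted p = 0.115). Its frog means were 1.01 FPKM after SCI and 0.375 FPKM in controls, with overlap. At 7 days the tadpole response was higher in 15 of 66 and lower in none, with a median of 0.64, where 1.91% of all entries were called higher. That count was 2 with the replicate block, 5 when 0.45 FPKM was required in every library and 6 with a pseudocount of 0.1, and the 3-day count was 10 with the block and 3 with that pseudocount. SPC25 (1.36 ± 0.24), BUB1B (1.32 ± 0.20), AURKB entry 1 (1.31 ± 0.27) and CDK1 entry 2 (1.25 ± 0.29) led the called members. 5 of the 15 belonged to CDK1 and its cyclins. Of the leaders, BUB1B, AURKB entry 1 and CDK1 entry 2 averaged under 0.45 FPKM in both frog groups. They passed the filter only through the tadpole groups. So did CCNA2 entry 1, CCNB1 entry 4, CDC20 entry 1 and NCAPH entry 1 at 7 days. At 3 days the same held for PLK1 entry 1 and CCNB2 entry 2. For entries near 0 in frogs the frog fold change is damped by the added 0.5 FPKM, and the frog side rests on the controls that carry the letter R. The 3-day count was 1 without any of 5 tadpole libraries (all 3 controls, SCI 2 and SCI 3), 2 without frog SCI 2, 3 without tadpole SCI 1 or frog SCI 3, and 4 to 7 without the other 4. The 7-day count was 23 without tadpole SCI 3, 13 without frog control 1, 10 without tadpole control 3, and 6 to 8 without any of the other 9.

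**Figure D5:**
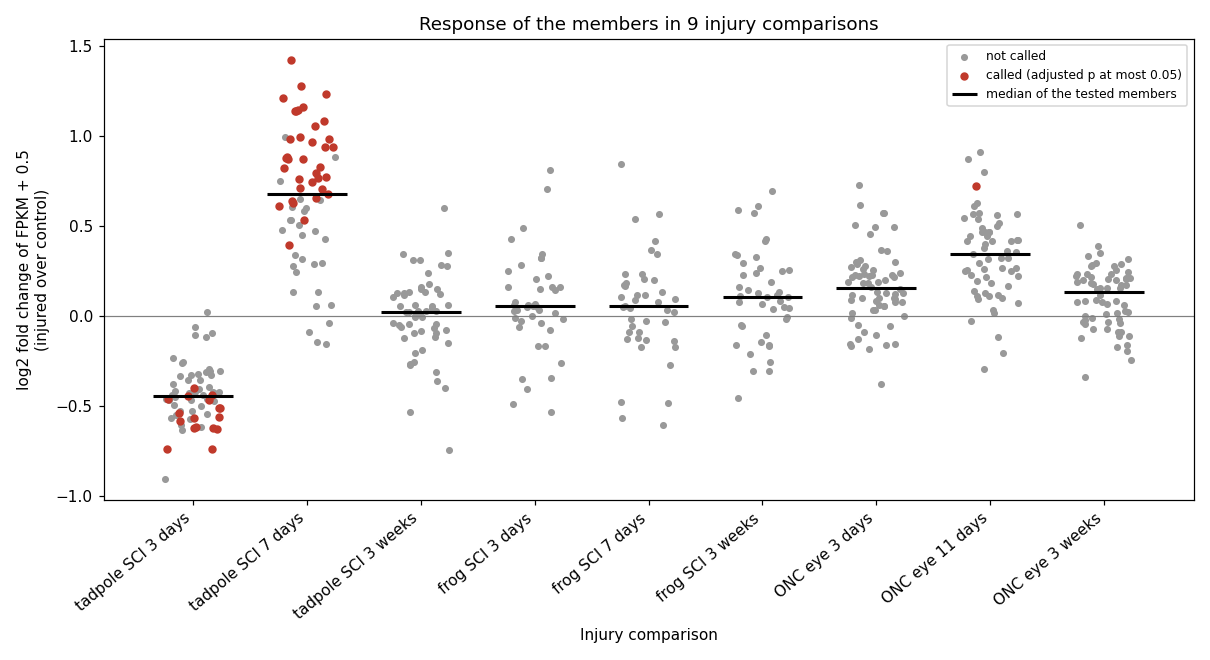
log2 fold change of each tested member (points) in the 9 injury comparisons, injured over control, with called members in red and the median as a bar. In the tadpole the members lie mostly below 0 at 3 days, mostly above 0 at 7 days and around 0 at 3 weeks. They lie around 0 in all frog comparisons. In the ONC eye most lie above 0 at each time, and 1 is called, at 11 days.

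In the eye groups, 59 to 66 of the 72 members averaged 0.45 FPKM or more. The retina of frogs keeps growing at its margin, but the libraries hold whole eyes, and which cells expressed the members was not tested. After crush of the optic nerve 1 member was called relative to the contralateral eye. At 11 days 1 of 61 tested members was called higher than in contralateral eyes, CCNB3 entry 2, at 4.38, 4.41 and 3.30 FPKM in ONC eyes, against 2.53, 2.11 and 2.08 FPKM in contralateral eyes (log2 fold change 0.72 ± 0.15, adjusted p = 0.0447), where 2.24% of all entries were called higher. The other members leaned the same way: 57 of 61 were positive, the median was 0.34, 23 were higher without overlap, where 11.6% of all entries were, and 24 had an unadjusted p under 0.05, none of them lower. MAD2L1 entry 2 had the largest value, at 4.03, 4.76 and 2.50 FPKM in ONC eyes, against 1.47, 1.77 and 1.91 FPKM in contralateral eyes (log2 fold change 0.91 ± 0.21, adjusted p = 0.0656). FOXM1 had 1.03, 0.662 and 0.654 FPKM in ONC eyes, against 0.0919, 0.310 and 0.203 FPKM in contralateral eyes (log2 fold change 0.87 ± 0.22, adjusted p = 0.0814). Neither overlapped between groups, but FOXM1 passed the filter only through the ONC group, where it therefore had to be higher. 2 of the 61 passed in 1 group only, and among the 59 that passed in both groups the median was 0.34. CCNB1 entry 3 had 3.21, 2.80 and 2.44 FPKM in ONC eyes, against 1.84, 1.37 and 2.05 FPKM in contralateral eyes, and BUB1B 1.37, 1.32 and 1.18 FPKM in ONC eyes, against 0.924, 0.617 and 0.716 FPKM in contralateral eyes, both higher without overlap and not called (0.56 ± 0.17 and 0.52 ± 0.17). TOP2A had 6.29, 5.48 and 3.74 FPKM in ONC eyes, against 4.28, 3.22 and 2.44 FPKM in contralateral eyes, with overlap (log2 fold change 0.57 ± 0.22, adjusted p = 0.212). The count was 2 without ONC library 3, 0 without any other single library, and 0 with the library letter as a covariate. Contralateral eyes of 11 days were themselves lower than naive eyes in 16 of 61 tested members, as described below. Member sums were 162 FPKM in ONC, 121 FPKM in contralateral and 174 FPKM in naive eyes. ONC eyes were not tested against naive eyes. The study, using CuffDiff2, reports mitotic checkpoint and DNA replication and repair genes as up-regulated in both regenerating tissues at the peak of axon outgrowth. It also names TOP2A and RRM2 among the genes that changed in both tissues. The calls given here come from limma, a different test, and the CuffDiff2 test was not repeated. DNA replication genes had 0 of 62 entries called and a median of 0.09, while markers of neuroblasts and young neurons had 10 of 19 entries higher, at 2082 to 2504 FPKM in ONC eyes and 762 to 844 FPKM in contralateral eyes, and their part in the members' values was not tested. That marker list includes SOX11, which the study reports as up-regulated in both regenerating tissues, and which cells expressed its entries was not tested.

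At 3 days and 3 weeks limma called 0 of 66 and 0 of 64 members in the ONC eye, where 0.19% and 0.612% of all entries were called, and every alternative tried also gave 0. Most members were positive at these times too: 54 of 66 at 3 days, with a median of 0.16, and 45 of 64 at 3 weeks, with a median of 0.13. An unadjusted p under 0.05 was found for 3 members at 3 days, all higher, and for none at 3 weeks. The 3 were both MAD2L1 entries and ECT2 entry 2, the exchange factor that starts the cytokinetic furrow: MAD2L1 entry 2 had 2.76, 3.20 and 3.36 FPKM in ONC eyes of 3 days, against 1.79, 1.45 and 1.80 FPKM in contralateral eyes (log2 fold change 0.73 ± 0.17, adjusted p = 0.27). The libraries of 3 days spread widely, with member sums of 149, 214 and 137 FPKM in ONC eyes, against 158, 170 and 118 FPKM in contralateral eyes. ONC libraries 1 and 3 and contralateral library 3, the lowest sums, carry the letter B and the other 3 libraries do not, and the members' median fold change was 0.31 with the letter as a covariate and 0.16 without it. TOP2A had 5.12, 10.3 and 3.62 FPKM in ONC eyes, against 6.33, 7.25 and 3.40 FPKM in contralateral eyes. ONC library 2 was the highest of its group and contralateral library 3 the lowest of its group in both measures. The difference between the 11-day and the 3-day response was called for 0 of 66 members, where 0.27% of all entries were called, with none at an unadjusted p under 0.05. Microglia and macrophage markers had summed FPKM of 91.9 to 126 in ONC eyes of 3 days and 42.1 to 59.0 in contralateral eyes.

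The contralateral eyes, whose libraries also serve as the reference of the ONC eyes above, differed from naive eyes. At 11 days they held less of the members: 16 of 61 tested members fell and none rose, with a median of -0.40, where 4.92% of all entries were called lower. TOP2A stood at 4.28, 3.22 and 2.44 FPKM in contralateral eyes, against 9.02, 9.27 and 7.95 FPKM in naive eyes (log2 fold change -1.30 ± 0.17, adjusted p = 0.00625). CDK1 entry 1 stood at 3.52, 3.66 and 3.16 FPKM in contralateral eyes, against 5.76, 4.96 and 5.71 FPKM in naive eyes (log2 fold change -0.60 ± 0.11, adjusted p = 0.0187), and PLK1 entry 1 at 0.899, 0.752 and 0.680 FPKM in contralateral eyes, against 1.47, 1.72 and 1.86 FPKM in naive eyes (log2 fold change -0.77 ± 0.15, adjusted p = 0.0215). Each contralateral library lay below each naive library in these entries, as it did in 38 of the 61, where 18.2% of all entries were lower without overlap. SMC2 (-0.86 ± 0.14), SMC4 (-0.75 ± 0.12), BUB1 (-0.81 ± 0.19), AURKB entry 1 (-0.78 ± 0.19) and CCNA2 entry 1 (-0.84 ± 0.13) were among those that fell. 26 of 63 DNA replication entries fell and none rose, among them MCM5 (-1.41), MCM3 (-1.27) and MCM6 (-1.23), while 3 of 20 CDK inhibitor entries rose and none fell, among them both CDKN1B entries, the inhibitor p27 (0.52 and 0.51). The member sums were 162 ± 19.5 FPKM in ONC eyes and 121 ± 6.58 FPKM in contralateral eyes of 11 days, and 174 ± 9.13 FPKM in naive eyes (SD, n = 3 each). All 3 contralateral libraries of 11 days and no naive library carry the letter B, and the letter and the group cannot be told apart. The count was 2 without naive library 3, 3 without naive library 2, 9 without naive library 1 or contralateral library 2, and 11 to 14 without the others. Red blood cell markers had 5 of 12 entries lower, at 732 to 1231 FPKM in contralateral eyes and 2509 to 3357 FPKM in naive eyes, and their part in the members' difference was not tested.

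The contralateral eyes of 3 days and 3 weeks, compared with the same naive libraries, gave fewer calls. limma called 0 of 61 members at 3 days, where 0.102% of all entries were called, with 9 at an unadjusted p under 0.05, all lower, a median of -0.17 and 0 under every alternative. At 3 weeks it called 1 of 63 lower, CDK1 entry 1, where 3.85% of all entries were, at 3.72, 2.62 and 4.11 FPKM in contralateral eyes, against 5.76, 4.96 and 5.71 FPKM in naive eyes (log2 fold change -0.60 ± 0.15, adjusted p = 0.0493), with a median of -0.21. This count was 3 without contralateral library 3 and 0 without any other single library.

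Entries that share a symbol, which may be homeologs or other related genes, were also set side by side. Of the 24 symbols with at least 2 tested entries, the entries' fold changes differed by a median of 0.11 at 3 days after tadpole SCI, and by 0.29 at most (UBE2C). At 7 days the median difference was 0.19, and all entries of a symbol were called for 7 symbols, some for 9 and none for 8. The widest gap was in BIRC5, where entry 1 rose (1.15 ± 0.22) and entry 3 had 3.23, 2.29 and 1.43 FPKM in SCI hindbrains, against 2.32, 2.80 and 2.09 FPKM in controls, with overlap (log2 fold change -0.09 ± 0.23, adjusted p = 0.842). AURKB entry 2 was scarce, at 0.731, 0.688 and 0.913 FPKM in SCI hindbrains, against 0.429, 0.364 and 0.457 FPKM in controls, higher without overlap and not called (log2 fold change 0.48 ± 0.17, adjusted p = 0.126), where entry 1 rose by 1.23. AURKB entry 2 passed the filter only through the SCI group, where it therefore had to be higher. No difference between entries of a symbol was tested. Reads that fit both copies equally well were divided at random between them, so near-identical entries are not independent measurements. The study states that most potentially duplicate reads were placed by alignment score, and that only a small remainder was divided this way.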

How the data were processed

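RNA was measured in 51 libraries of 17 groups by stranded, ribosome-depleted total RNA sequencing. Hindbrains were held overnight in RNAlater before extraction, while eyes were homogenized at once. The authors deposited FPKM values per gene model for each library. The submitters' processing notes name Bowtie2 2.2.9, TopHat2 2.1.1 and Cufflinks, and the study's methods also CuffDiff2. How libraries were scaled to each other is not given in the sources used here. Reads aligned equally well to several places were split at random, and row identifiers carry JGI v7b positions although reads were aligned to a later assembly.

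FPKM values were tested on log2(FPKM + 0.5) with limma 3.58.1 in R 4.3.3, with only the compared libraries in a fit and with Benjamini-Hochberg adjustment of the p-values over everything tested in that comparison. The filter kept entries averaging at least 0.45 FPKM in a compared group. The fit was tested on simulated data. Tables and figures were made with Python 3.11.15, pandas 2.3.3, numpy 2.4.6 and matplotlib 3.10.9. The study describes tadpole injury and control replicates as paired, but no source used here says that the numbers mark the pairs or whether pools were raised apart, so p-values measure the spread between these pools. ONC and contralateral eyes were the right and left eyes of the same frogs. The main ONC fits left this pairing out, and the replicate block was an alternative there too. The deviations of same-numbered libraries from their group means correlated at 0.250, 0.153 and 0.180 in the tadpole SCI comparison of 3 days, every one over 0.1, and at 0.229, 0.117 and 0.114 in that of 7-day with 3-day controls, and these comparisons were also fitted with the number as a block.

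Library values are given for up to 6 called members of largest fold change in each injury comparison and for CDK1, CCNB1, CCNB2, PLK1, AURKB, BUB1B, TOP2A and MKI67 where discussed, and other members were named after their values were seen. Genes of other lists are named from the 3 called entries of largest fold change. Members and lists were chosen with earlier results of these data known. Alternatives were median-of-ratios scaling, a pseudocount of 0.1, no filter, 0.45 FPKM in every library, the library letter as a covariate, a replicate block, 1 fit over further groups, and each library left out. The fit over further groups held all tadpole, all frog hindbrain or all eye groups. For frog against tadpole controls it held all hindbrain groups. Gene sequences are not used here.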

Additional observations from a re-analysis of the deposited data

Results flagged for a closer look

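The following differences between responses were found by an interaction term in limma. The response of the tadpole hindbrain to SCI at 7 days was higher than its response at 3 days in 56 of 65 tested members and lower in none, where 8.54% of all entries were called higher. The tadpole response at 3 days was lower than the frog response in 6 members (3 with a pseudocount of 0.1, 10 with the replicate block), where 3.23% of all entries were called lower. The tadpole response at 7 days was higher than the frog response in 15 members, where 1.91% of all entries were called higher, but in 2 with the replicate block, 5 with 0.45 FPKM in every library and 6 with that pseudocount. None was called in the other direction at either time. Some of the called members averaged under 0.45 FPKM in both frog groups, among them BUB1B, AURKB entry 1 and CDK1 entry 2 at 7 days. Every group had 3 libraries, too few for the search for single libraries that stand apart.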

How the results depend on the processing

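Among comparisons with at least 1 called member, the count stayed within 1.5 times its value in 49 of 70 alternative settings that kept every library and in 35 of 90 that left 1 out. The cause of the changes was not tested. For the tadpole SCI comparison of 3 days the count, 17, was 3 with no filter, 31 with the replicate block and 8 with all tadpole groups in 1 fit. For ONC at 11 days (1) it was 0 with the replicate block, 2 with all eye groups in 1 fit and 0 with the library letter as covariate. Frog SCI (0) gave 1 at 3 days with no filter and 1 at 3 weeks with all frog hindbrain groups in 1 fit. Tadpole controls of 3 weeks against 7 days (3) gave 5 with 0.45 FPKM in every library and 31 with all tadpole groups in 1 fit. Frog against tadpole controls (24) gave 11 with 0.45 FPKM in every library. Contralateral against naive eyes gave 9 with all eye groups at 11 days (16). At 3 weeks (1) they gave 2 with median-of-ratios scaling, 0.45 FPKM in every library or the replicate block, and 0 with a pseudocount of 0.1, no filter or all eye groups. The tadpole minus frog difference of 3 days (6) gave 3 with a pseudocount of 0.1 and 10 with the replicate block, and that of 7 days (15) gave 6 with that pseudocount, 5 with 0.45 FPKM in every library and 2 with the replicate block.

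Without 1 library the counts ranged from 0 to 7 (tadpole SCI 3 days), 5 to 40 (tadpole SCI 7 days), 0 to 2 (ONC 11 days), 0 to 2 (controls of 3 weeks against 7 days), 13 to 18 (frog against tadpole controls), 20 to 51 (7-day SCI against younger controls), 2 to 14 and 0 to 3 (contralateral against naive, 11 days and 3 weeks), and 1 to 7 and 6 to 23 (tadpole minus frog, 3 and 7 days). No called member changed sign under any setting. The library letter could not be fitted for contralateral against naive eyes of 11 days. With the replicate block 36 members were called for tadpole SCI at 7 days, 34 of them among the 36 called without it. Members under the minimal level in frogs limit what the frog comparisons can show.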

Other observations

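At 3 days after tadpole SCI 1 of 19 CDK inhibitor entries was called, GADD45A, which was higher (0.96), and at 7 days 2 of 18 were called, BTG1 higher (0.41) and BTG2, an antiproliferative gene, lower (-1.07).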
